A study of Mus musculus with 2 samples.

Results

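The genes of oxidative phosphorylation code for the respiratory chain, its electron carrier cytochrome c and the ATP synthase. They were taken by name from the deposited gene list: symbols that begin with Nduf, Uqcr, Atp5, Cox4i, Cox5, Cox6, Cox7, Cox8 or mt-, together with Sdha, Sdhb, Sdhc, Sdhd and Cycs, leaving out names that end in -ps or os. This gave 107 of 32285 genes, of which 94 were nuclear and 13 were the protein-coding genes of the mitochondrial genome. Among the nuclear genes, 36 were named for complex I, 8 were complex I assembly factors (Ndufaf), 4 belonged to complex II, 8 to complex III, 20 to complex IV and 17 to complex V, and 1 was cytochrome c. Ndufa4, Ndufa4l2 and Cox7a2l were counted with complex IV, because their products are known to act at complex IV or at its contacts with other complexes.

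Cells of newborn mouse kidney (postnatal day 0) were profiled by droplet single-cell RNA-seq, which tags the 3' end of each transcript with a unique molecular identifier (UMI). There were 2 libraries, replicates 1 and 2, and both carried the genotype Rbpj c/+ ; Foxd1cre/+. Every library therefore had 1 conditional allele of Rbpj, the DNA-binding factor of Notch signalling, and a Cre driver at Foxd1, a gene of the progenitors of the kidney stroma. No library without these alleles was analysed here, so the comparisons below are between cell classes and not between genotypes of libraries. Cells that descend from Foxd1 cells may carry a recombined Rbpj allele. Recombination was not measured, and in such classes it cannot be told apart from the class itself. The labels do not say whether the libraries came from different animals, and p-values measure only the spread between these samples, which may be technical.

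Complexes I to IV pass electrons from NADH and succinate to oxygen. Complexes I, III and IV pump protons across the inner mitochondrial membrane, and complex V, the ATP synthase, uses the proton gradient to make ATP. Most subunits are coded in the nucleus, while a core set in complexes I, III, IV and V is coded by mitochondrial DNA. Kidney tubules reabsorb salt and solutes by active transport and are among the tissues richest in mitochondria, whereas nephron progenitors are known to rely more on glycolysis.

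Barcodes counted as cells when they had 3000 UMIs or more, 500 genes or more and no more than 20% mitochondrial UMIs. Replicate 1 held 5529 cells and replicate 2 held 4206 cells, with medians of 15016 and 20008 UMIs per cell. A gate on marker genes placed 69.7% and 69.9% of these cells in 14 classes. Each marker panel was highest in its own class, and of the single markers 1 of 5 nephron progenitor markers was not. The gate used these same markers, so this follows from the gate and is not a separate check of the classes. The classes held between 23 cells (erythroid, replicate 1) and 688 cells (endothelial, replicate 1). The distal convoluted tubule class was the smallest of the tubule classes in replicate 1, with 48 cells there and 113 in replicate 2. Cell barcodes shared by both libraries numbered 6.

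The nuclear members were most abundant in 5 tubule classes: distal convoluted tubule, intercalated cells, loop of Henle, proximal tubule and principal cells of the collecting duct. Their summed level, in CPM (UMIs of the class scaled to a total of 1000000), was 59029 in replicate 1 and 82634 in replicate 2 in the distal convoluted tubule. It was 48893 and 62619 in intercalated cells and 42899 and 59491 in the loop of Henle. The proximal tubule had 36043 and 40143 CPM, and the principal cells had 29466 and 41797 CPM. Both libraries of these 5 classes lay above both libraries of every other class. Among the rest, the early nephron came next with 20707 and 25232 CPM and nephron progenitors had 19309 and 21449 CPM. The remaining classes lay between 17174 and 22025 CPM, apart from the erythroid class with 10015 and 4842 CPM. Within each library the distal convoluted tubule was above the intercalated cells, those were above the loop of Henle, and that was above the proximal tubule, although the ranges over both libraries overlapped between the first 3 of these classes. The proximal tubule was above the principal cells in replicate 1 and below them in replicate 2. With 2 libraries per class an exact permutation test cannot give a p below 0.333, so no test is given for these sums.

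**Figure D1:**
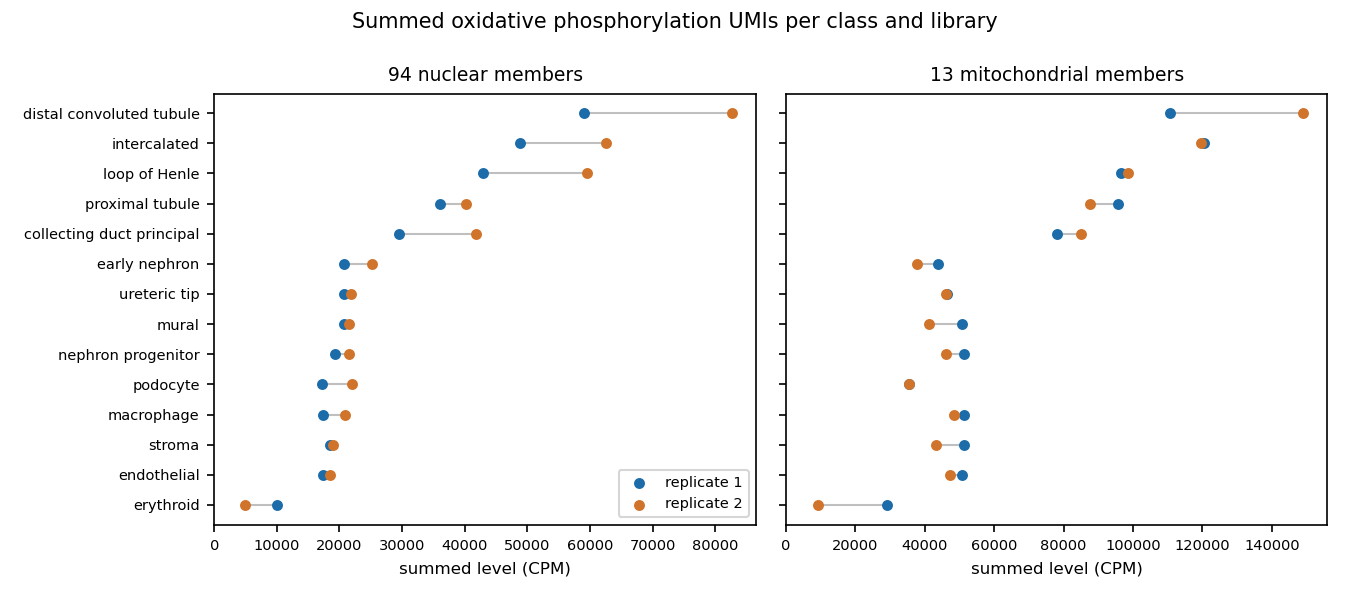
Summed level in CPM (x axis, linear from 0) of the 94 nuclear members (left) and the 13 mitochondrial members (right) in each marker-gated class (y axis), with 1 point per library and a grey line joining the 2 libraries. The 5 tubule classes lie to the right of every other class in both panels, with nuclear sums from 29466 CPM upward.

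The mitochondrial members were high in the same classes. Their summed level was 110802 and 149036 CPM in the distal convoluted tubule, 120452 and 119584 CPM in intercalated cells and 96582 and 98515 CPM in the loop of Henle. It was 95633 and 87536 CPM in the proximal tubule and 78015 and 84960 CPM in principal cells, against 51390 and 46148 CPM in nephron progenitors. Podocytes had 35586 and 35408 CPM, below every other class but the erythroid one. Relative to nephron progenitors of the same library, the nuclear sum was 3.06 and 3.85 times as high in the distal convoluted tubule and 1.87 times as high in both libraries of the proximal tubule. In bulk sums of this kind, more RNA per cell of these genes and less RNA of all other genes cannot be told apart.

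The classes also differed in how much their cells varied. In nephron progenitors of replicate 1, the nuclear members made up a median of 202 per 10000 UMIs of a cell, with quartiles of 174 and 228. In the loop of Henle of replicate 1, the median was 492 per 10000 with quartiles of 298 and 620, and in replicate 2 it was 643 with quartiles of 446 and 793. The interquartile range of loop of Henle cells was wider than that of the progenitors in both libraries, where replicate 2 progenitors had quartiles of 189 and 239.

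The share of each complex in the nuclear sum differed between classes. Complex I took 28.8% and 28.2% of the nuclear UMIs in nephron progenitors, 27.6% and 27.9% in the proximal tubule and 24.6% and 25.4% in the distal convoluted tubule. Complex III took 9.53% and 9.63% in nephron progenitors and 10.8% and 10.9% in the distal convoluted tubule. For both complexes the libraries of progenitors and of the distal convoluted tubule did not overlap. Complex II, the smallest share, took 1.53% and 1.61% in the ureteric tip, 1.82% and 1.80% in nephron progenitors and 2.24% and 2.51% in macrophages, and 1.14% and 0.546% in the erythroid class.

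Replicate 2 had the higher nuclear sum in 13 of 14 classes, with a median ratio of 1.16 to replicate 1, and the ratio of mitochondrial to nuclear members was lower in replicate 2 in all 14 classes. Cells of replicate 2 had more UMIs at the median (20008 against 15016). The part of depth in these differences was not tested. The tests below keep the library as a block, so that such shared shifts are taken out.

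To ask which members set a class apart, the counts of each class were summed per library. Each class was then compared with the unweighted mean of the other 13 by edgeR's quasi-likelihood test, with Benjamini-Hochberg adjustment over all 17110 tested genes and a threshold of 0.05. Of the members, 104 could be tested. Cox6a2, Cox8b and Cox8c had at most 7 counts in either library and were not. In the distal convoluted tubule 100 members were called higher and 2 lower, where 22.5% and 15.4% of all tested genes were called in those directions. In the loop of Henle 99 were higher and 2 lower (24.1% and 12.4% of all genes), in intercalated cells 93 were higher and 0 lower (21.0% and 12.5%), and in the proximal tubule 87 were higher and 3 lower (31.4% and 16.8%). Principal cells had 36 members higher and 1 lower (21.9% and 12.3%), with 53 and 1 without TMM scaling factors and 50 and 1 by the DESeq2 Wald test. Of the 104 members, 83 were called higher in each of the first 4 of these classes, and 30 in all 5. The share of all genes called higher in the same 4 or 5 classes is not given. Cox4i2, Cox7b2 and Ndufa4l2 were called higher in none of the first 4.

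The members were called mostly lower in the other classes. The counts were 66 lower and 3 higher in nephron progenitors (16.1% and 30.7% of all genes), 52 and 4 in the early nephron (14.7% and 30.1%), 78 and 2 in podocytes (17.3% and 25.7%) and 83 and 0 in the ureteric tip (11.7% and 21.6%). Endothelial cells had 81 lower and 2 higher (15.7% and 29.2%), stroma 80 and 3 (14.5% and 26.8%), mural cells 53 and 2 (13.7% and 24.7%) and macrophages 61 and 0 (17.1% and 22.4%). The erythroid class, with 23 and 35 cells, had 13 lower and 6 higher (2.22% and 3.17%). Since each class is set against a mean that holds the 5 tubule classes, a member that is high in tubules tends to be called low elsewhere. The counts in the low classes also moved with the scaling. Without TMM factors the calls were 27 lower and 6 higher in nephron progenitors, 11 and 3 in the early nephron, 12 and 2 in the ureteric tip, 11 and 2 in mural cells and 98 and 2 in the erythroid class. In the same setting they were 32 and 2 in podocytes, 28 and 4 in stroma, 29 and 0 in macrophages and 48 and 2 in endothelial cells. After free RNA was subtracted they were 34 and 3 in nephron progenitors, 11 and 3 in the early nephron, 38 and 2 in podocytes, 31 and 0 in the ureteric tip, 53 and 2 in stroma and 39 and 0 in macrophages. In the erythroid class, DESeq2 size factors gave 5 lower and 9 higher, and the DESeq2 Wald test gave 6 and 11. Shares over all genes are not given for these settings, so the counts do not show whether the members or all genes moved. Without TMM factors the median log2 fold change of all genes went from 0.16 to 0.28 in nephron progenitors. It went from 0.09 to 0.39 in the ureteric tip and from -0.68 to -2.32 in the erythroid class.

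**Figure D2:**
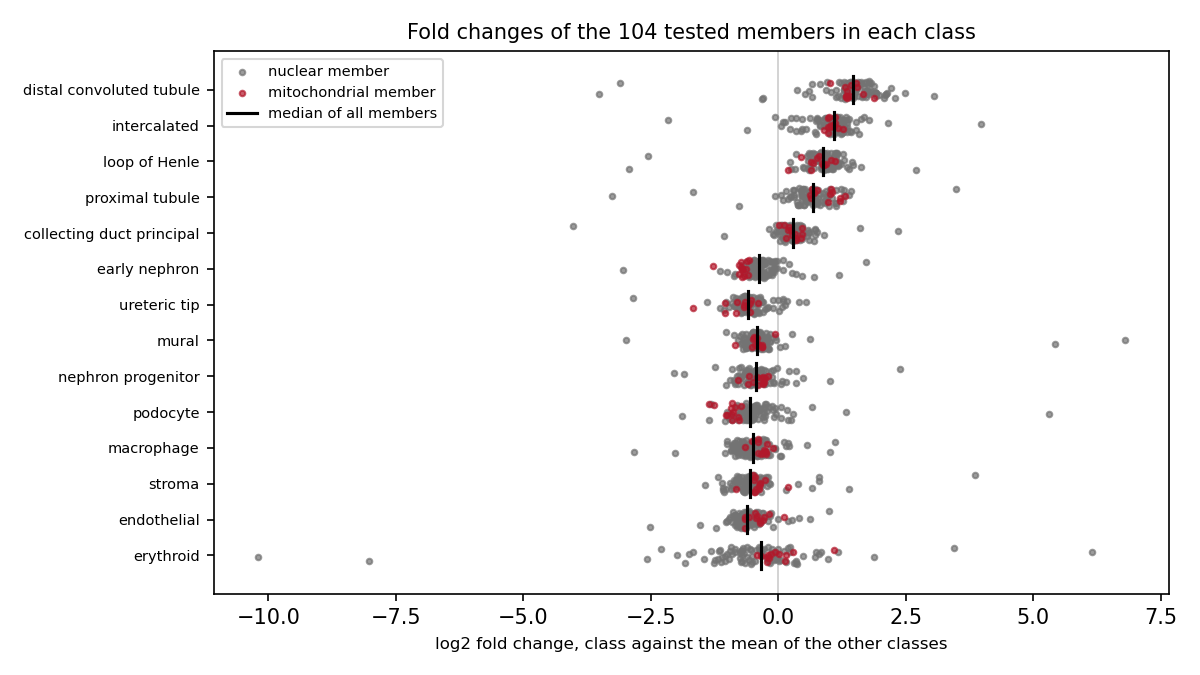
Log2 fold change (x axis) of each of the 104 tested members in each class against the mean of the other classes (y axis, ordered by nuclear sum), with nuclear members in grey, mitochondrial members in red and the median of all members as a black bar. Medians run from 1.47 in the distal convoluted tubule to -0.61 in endothelial cells, and the points far to the left or right of their class include members with few counts, whose fitted values are not precise.

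The comparison of the proximal tubule with nephron progenitors sets the reabsorbing tubule against the cells that give rise to it. Of 104 members, 93 were higher and 3 lower in the proximal tubule, where 29.7% and 31.4% of all genes were called in those directions. The median log2 fold change was 1.08 for the members and -0.09 for all tested genes. In the loop of Henle against nephron progenitors, 97 members were higher and 1 lower (25.5% and 29.3% of all genes), with a median of 1.19 against -0.10. The 2 comparisons share the progenitor samples. Values below are levels in CPM for replicates 1 and 2, and adjusted p-values are from edgeR's quasi-likelihood test.

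**Figure D3:**
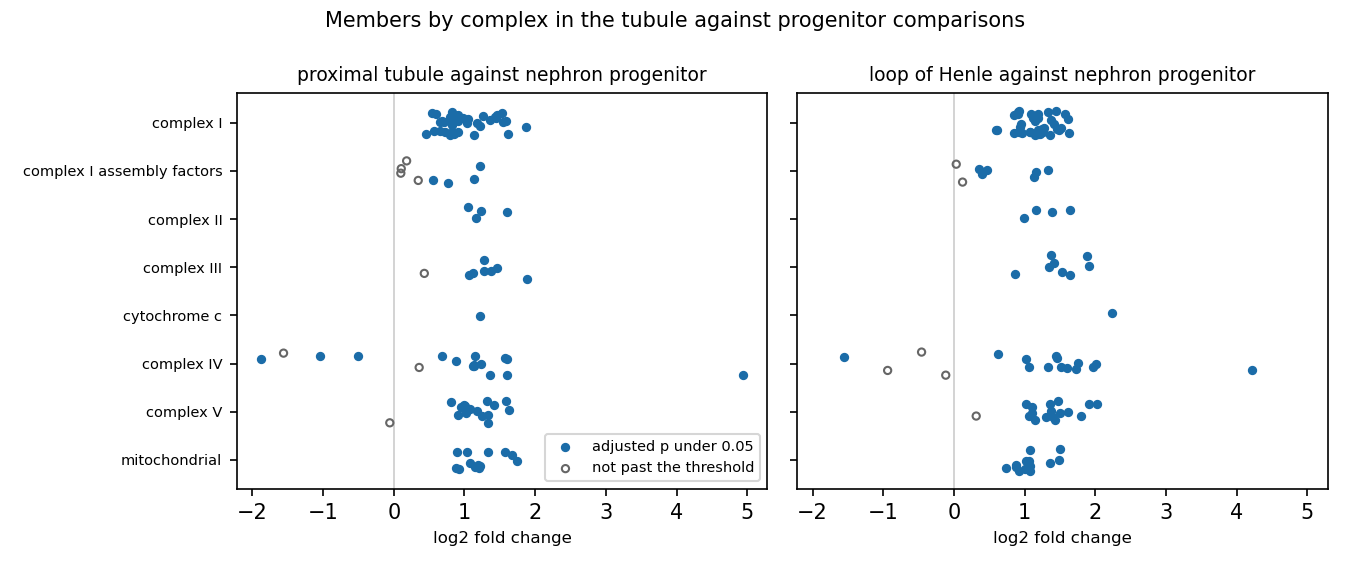
Log2 fold change (x axis) of each tested member against nephron progenitors in the proximal tubule (left) and loop of Henle (right), grouped by complex (y axis), with members past the adjusted p threshold of 0.05 filled and the others open. Every complex I and complex II point is filled and to the right of 0 in both panels, and the points left of 0 belong to complex IV, apart from 1 complex V point in the left panel.

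In complex I, the NADH dehydrogenase, all 36 members were higher in both tubule classes, with log2 fold changes from 0.46 to 1.87 in the proximal tubule and from 0.60 to 1.63 in the loop of Henle. Ndufv3, an accessory subunit of the NADH-binding module, stood at 221 and 241 CPM in the proximal tubule and 63.6 and 80.2 CPM in nephron progenitors. Its log2 fold change was 1.87 ± 0.13 (SE from the fit, n = 2 libraries per class, adjusted p = 1.7e-10 by edgeR). Here and below the SE is the absolute log2 fold change divided by the square root of the test's F. It rests on the residual spread over all 28 sums of the fit (13 residual degrees of freedom, library as a block). It is not the spread of 2 values. Ndufb8, a membrane-arm subunit, had 688 and 791 against 254 and 291 CPM (1.61 ± 0.21, adjusted p = 1.8e-06 by edgeR). The tubule and progenitor libraries did not overlap for either gene. Of the 8 complex I assembly factors, which help build the complex and are not part of it, 4 were higher in the proximal tubule and 6 in the loop of Henle. Their median log2 fold changes of 0.45 and 0.43 compare with 0.91 and 1.19 for the complex I members.

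All 4 subunits of complex II, succinate dehydrogenase, were higher in both classes. Sdhd, a membrane anchor, had 185 and 213 CPM in the proximal tubule, 197 and 266 CPM in the loop of Henle and 71.0 and 75.3 CPM in nephron progenitors. For the proximal tubule this was a log2 fold change of 1.61 ± 0.17 (adjusted p = 1.0e-07 by edgeR). In complex III, the cytochrome bc1 complex, 7 of 8 members were higher in the proximal tubule and 8 of 8 in the loop of Henle. Uqcr10, a small subunit, had 726 and 787 CPM in the proximal tubule against 216 and 247 CPM in progenitors (1.88 ± 0.19, adjusted p = 3.3e-08 by edgeR). Tubule values lay above progenitor values in both libraries for each of these genes.

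Cycs codes for cytochrome c, the mobile protein that carries electrons from complex III to complex IV. It was at 97.1 and 112 CPM in nephron progenitors, 189 and 251 CPM in the proximal tubule and 377 and 639 CPM in the loop of Henle. Intercalated cells had 612 and 942 CPM and the distal convoluted tubule had 687 and 1114 CPM. Relative to progenitors of the same library, Cycs was 7.08 and 9.91 times as high in the distal convoluted tubule, where the nuclear sum was 3.06 and 3.85 times as high. Against the mean of the other classes its log2 fold change there was 2.48 ± 0.12 (adjusted p = 1.1e-12 by edgeR). In the loop of Henle against progenitors it was 2.23 ± 0.21 (adjusted p = 2.0e-08 by edgeR), and in the proximal tubule 1.22, near the median of the members.

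In complex V, the ATP synthase, 16 of 17 members were higher in the proximal tubule and 16 of 17 in the loop of Henle. The exception in both was Atp5g2. Atp5g1, Atp5g2 and Atp5g3 code for the same mature c subunit, the protein of the rotor ring, with different import sequences. Atp5g1 had 374 and 475 CPM in nephron progenitors and 874 and 1143 CPM in the proximal tubule (1.42 ± 0.20, adjusted p = 4.4e-06 by edgeR). Atp5g3 had 306 and 330 CPM in progenitors and 840 and 858 CPM in the proximal tubule (1.59 ± 0.15, adjusted p = 2.1e-08 by edgeR). Atp5g2 had 618 and 646 CPM in progenitors and 524 and 555 CPM in the proximal tubule, a log2 fold change of -0.06 ± 0.16 (adjusted p = 0.78 by edgeR). For each of the 3 genes the libraries of the classes did not overlap in CPM, a scale without TMM factors, and on that scale Atp5g2 was lower in the proximal tubule in both libraries.

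The make-up of c subunit UMIs differed between classes. Atp5g2 gave 47.6% and 44.5% of the UMIs of the 3 genes in nephron progenitors, 23.4% and 21.7% in the proximal tubule and 16.9% and 11.7% in the distal convoluted tubule. Early nephron cells, with 50.1% and 46.3%, lay near the progenitors, and the loop of Henle had 25.1% and 17.8%. In the distal convoluted tubule Atp5g1 alone gave 45.7% and 57.0%. Against the mean of the other classes Atp5g2 was called higher there as well, by 0.37, a call that was lost under other settings with adjusted p up to 0.35.

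The 250 bases before a RefSeq start of these 3 genes and of Cycs are shown. The 3 c subunit genes make 1 protein but moved differently. Cycs was among the members with the largest changes in the loop of Henle, the distal convoluted tubule and intercalated cells. The stretches come from RefSeq on build GRCm38.p6, in the direction of the gene, at chr11:96075632-96075881, chr15:102671048-102671297, chr2:73911327-73911576 and chr6:50566570-50566819, all on the minus strand. In GENCODE M21 the Atp5g2 gene spans chr15:102662864-102672352, so its stretch lies inside the gene. The Atp5g1 gene reaches chr11:96075670 there, so its stretch overlaps the gene in part. Capitals mark matches, on either strand, to a 10-letter motif of NRF1 with 1 free position or of the oestrogen-related receptors (TCAAGGTCA).
Atp5g1: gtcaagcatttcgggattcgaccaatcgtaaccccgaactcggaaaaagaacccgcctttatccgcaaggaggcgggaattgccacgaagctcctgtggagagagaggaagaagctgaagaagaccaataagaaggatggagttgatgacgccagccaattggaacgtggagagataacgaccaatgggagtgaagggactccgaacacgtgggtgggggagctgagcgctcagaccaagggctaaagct
Atp5g2: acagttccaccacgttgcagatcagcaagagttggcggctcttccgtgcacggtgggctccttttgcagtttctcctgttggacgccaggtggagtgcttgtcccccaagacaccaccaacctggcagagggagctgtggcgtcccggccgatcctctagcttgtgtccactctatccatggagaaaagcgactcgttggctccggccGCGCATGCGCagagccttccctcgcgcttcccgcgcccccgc
Atp5g3: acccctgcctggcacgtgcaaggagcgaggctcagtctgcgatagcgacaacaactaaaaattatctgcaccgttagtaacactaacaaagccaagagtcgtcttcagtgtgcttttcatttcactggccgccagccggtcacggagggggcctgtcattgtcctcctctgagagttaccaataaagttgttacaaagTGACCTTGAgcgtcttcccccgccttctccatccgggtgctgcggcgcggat
Cycs: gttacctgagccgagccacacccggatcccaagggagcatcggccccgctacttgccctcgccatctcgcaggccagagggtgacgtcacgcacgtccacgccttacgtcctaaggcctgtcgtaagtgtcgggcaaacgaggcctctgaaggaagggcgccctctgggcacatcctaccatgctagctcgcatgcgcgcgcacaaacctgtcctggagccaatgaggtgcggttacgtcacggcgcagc

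Within this stretch Atp5g2 held an NRF1 match, Atp5g3 held an oestrogen-related receptor match, and the stretches of Atp5g1 and Cycs held no match to these letters. Atp5g3 also held an NRF1 match in its 300-base window, which reaches past the stretch shown. Promoter sequence (250 bases before to 50 after a RefSeq start) was found for 76 of the 94 nuclear members. The NRF1 motif was present in 19 of these 76, or 25%, and in 5.19% of all 27025 genes with promoter sequence of the same length. A gene was counted if any of its promoter windows held the motif. The YY1 motif (AAGATGGCG) was in 10.5% of members and 1.64% of all these genes, and the ETS motif (CCGGAAGT) in 6.58% and 4.31%. The oestrogen-related receptor motif was in 2 members (Atp5g3 and Sdhd), or 2.63%, and in 0.466% of all these genes. A match is a description of the letters and was not measured as a bound site.

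Complex IV, cytochrome c oxidase, was the complex in which members parted. Of 17 tested members, 12 were higher and 3 lower in the proximal tubule than in nephron progenitors, and 13 were higher and 1 lower in the loop of Henle. The common subunits moved with the other complexes: Cox6a1 had 484 and 443 CPM in the proximal tubule, 609 and 789 CPM in the loop of Henle and 165 and 181 CPM in progenitors. Its log2 fold changes were 1.60 ± 0.24 (adjusted p = 9.8e-06 by edgeR) and 2.0 ± 0.25 (adjusted p = 9.8e-07 by edgeR). Cox4i1, the common form of subunit IV, rose less, from 932 and 1010.0 CPM in progenitors to 1309 and 1449.6 CPM in the proximal tubule (0.68 ± 0.21, adjusted p = 0.0090 by edgeR). Without TMM factors that call was lost (adjusted p = 0.18).

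Cox7a1, the form of subunit VIIa best known from heart and skeletal muscle, was almost confined to the 5 tubule classes. It had 14 and 17 counts in nephron progenitors (0.746 and 1.15 CPM) against 546 and 268 counts in the proximal tubule (30.6 and 20.2 CPM). Intercalated cells had the highest levels, 32.5 and 47.6 CPM, and the loop of Henle had 17.6 and 17.8 CPM, the distal convoluted tubule 16.9 and 22.8 CPM and principal cells 11.2 and 18.2 CPM. No other class exceeded 4.42 CPM in either library. Against the mean of the other classes it was called higher in all 5, from 2.34 ± 0.32 in principal cells to 3.97 ± 0.29 in intercalated cells (adjusted p = 7.2e-06 and 1.8e-09 by edgeR). Its place beside Cox7a2 was small, since it gave 5.09% and 3.11% of the UMIs of both genes in the proximal tubule and 3.64% and 3.57% in intercalated cells. Free RNA, from barcodes with at most 100 UMIs, held Cox7a1 at 8.50 and 17.4 CPM. Scaled by haemoglobin counts, it made up 7.24% and 2.18% of proximal tubule UMIs and 1.17% and 0.477% of intercalated cell UMIs.

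Cox6b2, best known as the testis form of subunit VIb, had another order. The erythroid class had 94.8 and 43.3 CPM from 24 and 18 counts, and was called above the mean of the other classes (3.44 ± 0.36, adjusted p = 1.7e-06 by edgeR). The size of this fold depends on the scaling, since without TMM factors the median of all genes in that class went from -0.68 to -2.32. In CPM the erythroid class of replicate 2 lay below stroma and the loop of Henle. In the erythroid class Cox6b2 gave 35.8% and 35.3% of the UMIs of Cox6b1 and Cox6b2. Stroma had 61.1 and 60.4 CPM, the loop of Henle 40.1 and 55.3 CPM, the distal convoluted tubule 54.7 and 41.6 CPM and nephron progenitors 31.1 and 30.0 CPM. The proximal tubule had 12.2 and 14.4 CPM and endothelial cells 4.80 and 4.71 CPM. Free RNA held Cox6b2 at 27.7 and 38.5 CPM. Scaled by haemoglobin counts, it made up 1.83% and 0.927% of loop of Henle UMIs and 7.24% and 2.18% of proximal tubule UMIs. Cox6b2 was lower in the proximal tubule than in progenitors (-1.04 ± 0.22, adjusted p = 4.4e-04 by edgeR) and higher in the loop of Henle (0.63 ± 0.21, adjusted p = 0.017 by edgeR). The second call was lost with at most 10% mitochondrial UMIs (adjusted p = 0.21) and after free RNA was subtracted (adjusted p = 0.13). The 2 tubule classes did not overlap in level.

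Cox7a2l, which codes for a factor that joins complexes III and IV into supercomplexes, went against most members in the proximal and distal convoluted tubule. It had 438 and 400 CPM in nephron progenitors and 258 and 264 CPM in the proximal tubule, a log2 fold change of -0.51 ± 0.12 (adjusted p = 0.0011 by edgeR). In the distal convoluted tubule, where 100 members were called higher, it had 246 and 221 CPM and was called lower. In the loop of Henle its level, 393 and 381 CPM, overlapped neither the distal convoluted tubule nor the proximal tubule, and the comparison with progenitors was not called. Against the mean of the other classes it was called higher in the loop of Henle, as most members were, and also in nephron progenitors and endothelial cells.

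**Figure D4:**
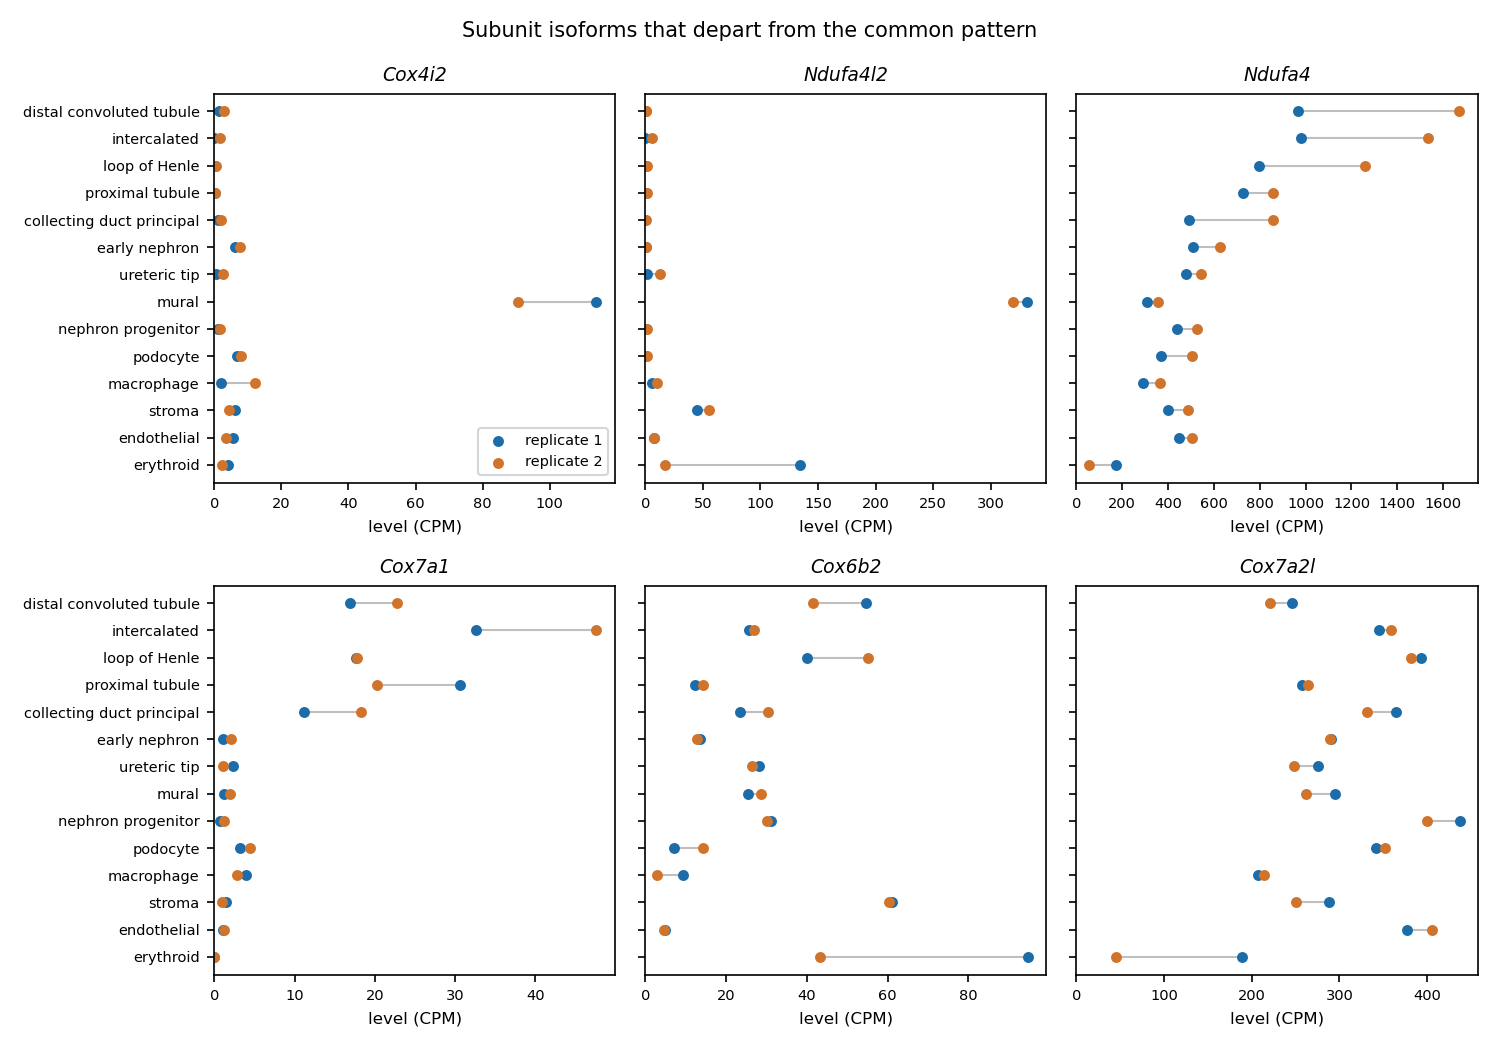
Level in CPM (x axis, linear from 0, own scale in each panel) of 6 complex IV genes in each class (y axis, ordered by nuclear sum), with 1 point per library. Cox4i2 and Ndufa4l2 stand out in mural cells, at 114 and 90.5 CPM and at 332 and 319 CPM, Cox7a1 lies in the 5 tubule classes, and Cox7a2l is lowest outside the erythroid class in macrophages and the distal convoluted tubule.

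Mural cells (pericytes and smooth muscle of vessels) were compared with stroma: 2 members were higher and 1 lower in mural cells, where 4.63% and 4.43% of all genes were called in those directions. The median log2 fold change was 0.14 for the members and -0.03 for all tested genes. The 2 higher members were Cox4i2, an alternative form of subunit IV known from lung and vessels, and Ndufa4l2, a paralogue of the complex IV subunit Ndufa4 known to be induced by hypoxia-inducible factor. Cox6b2 was lower in mural cells, at 25.5 and 28.6 CPM against 61.1 and 60.4 CPM in stroma (-1.16 ± 0.23, adjusted p = 0.0022 by edgeR). This call was lost after free RNA was subtracted, and free RNA held Cox6b2 at 27.7 and 38.5 CPM. Scaled by haemoglobin counts, free RNA made up 12.4% and 18.3% of mural UMIs and 2.45% and 6.87% of stromal UMIs. With only the 2 classes in the fit, 20 members were called, 18 higher and 2 lower, where 9.49% and 8.62% of the genes of that fit were called in those directions.

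Cox4i2 (chr2:152754173-152765037, plus strand, mm10) had 465 and 465 counts in mural cells, or 114 and 90.5 CPM, against 37 and 23 counts in stroma, or 6.22 and 4.25 CPM. Its log2 fold change was 4.29 ± 0.37 (adjusted p = 1.8e-07 by edgeR). Every other class stayed at or below 12.1 CPM in each library, and free RNA held it at 12.9 and 8.10 CPM. Among these it was called above the mean of the other classes in the early nephron, with 6.17 and 7.76 CPM from 87 and 69 counts (1.20 ± 0.30, adjusted p = 0.0026 by edgeR), and in podocytes, with 6.75 and 7.96 CPM from 50 and 36 counts (1.32 ± 0.34, adjusted p = 0.0036 by edgeR). Both levels were below that of free RNA in the same library. Scaled by haemoglobin counts, free RNA made up 0.844% and 4.99% of early nephron UMIs and 11.3% and 0.503% of podocyte UMIs. In the proximal tubule it had 6 and 4 counts against 20 and 26 in progenitors, which is too few for a fold, and both this call of lower level and the one in the loop of Henle (4 and 8 counts) were lost under other settings.

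Ndufa4l2 (chr10:127514967-127517154, plus strand, mm10) had 332 and 319 CPM in mural cells and 44.9 and 55.0 CPM in stroma (2.75 ± 0.34, adjusted p = 1.6e-05 by edgeR). Its gene overlaps Shmt2 on the opposite strand, and whether counting used the strand is not given in the sources used here. Stroma was itself above the mean of the other classes, by 3.85 ± 0.26 (adjusted p = 2.0e-10 by edgeR). The 5 tubule classes had at most 5.95 CPM in either library. In the erythroid class the libraries differed, with 134 and 16.8 CPM from 34 and 7 counts. In endothelial cells a log2 fold change of 1.0 was called, but that fold change was -1.49 after free RNA was subtracted.

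Ndufa4 itself had 306 and 358 CPM in mural cells, below the mean of the other classes by 0.86 on the log2 scale (-0.86 ± 0.15, adjusted p = 1.2e-04 by edgeR), and against stroma it differed by -0.40 ± 0.19 and was not called (adjusted p = 0.26 by edgeR). It was 1 of the 53 members called lower in mural cells than in the mean of the other classes. Ndufa4l2 gave 52.0% and 47.1% of the UMIs of the pair in mural cells, 10.1% and 10.2% in stroma and 0.169% and 0.282% in nephron progenitors. Cox4i2 gave 11% and 9.24% of the UMIs of subunit IV in mural cells and 0.762% and 0.526% in stroma.

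Both genes were present in many single mural cells. Of 315 and 283 mural cells, 141 and 146 held UMIs of both genes, 123 and 97 of Ndufa4l2 alone, 11 and 6 of Cox4i2 alone and 40 and 34 of neither. After each cell was thinned to 3000 UMIs, Ndufa4l2 was seen in 56.8% and 51.9% of mural cells, 10.9% and 13% of stromal cells and 0.529% and 0.295% of nephron progenitors. The unthinned shares were 83.8% and 85.9%, 32.2% and 38.9%, and 1.76% and 2.06%. Cox4i2 was seen in 18.7% and 24.4% of thinned mural cells and 0.176% and 0.885% of progenitors. Median depths were 11361 and 16937 UMIs in mural cells and 18932 and 25521 in progenitors.

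Over the 14 class means, the genes most like Cox4i2 by Pearson's r of log2(CPM + 1) were Carmn (0.88), Mustn1 (0.87), Pld5 (0.86), Akap6 (0.85) and Trarg1 (0.85). Those most like Ndufa4l2 were Hopx (0.93), Kcnj8 (0.92), Esr2 (0.92), Aoc3 (0.91) and Mrvi1 (0.91). Kcnj8 was 1 of the markers of the mural gate, and class means share libraries and depth, so the values are descriptions.

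Cox7b2, best known from testis, was close to absent. It had 18 and 18 counts in podocytes, or 2.43 and 3.98 CPM, and at most 14 counts in any library of another class. Against the mean of the other classes it was called in podocytes (log2 fold change 5.31 ± 0.70, adjusted p = 1.6e-05 by edgeR), where the other classes held few or no counts, so that the size is not precise. It was also called higher in nephron progenitors, on 3 and 14 counts (adjusted p = 0.039 by edgeR), a call that was lost under other settings with adjusted p up to 0.41.

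All 13 mitochondrial members were higher in the proximal tubule and in the loop of Henle than in nephron progenitors. Log2 fold changes ran from 0.88 (mt-Co1, the catalytic subunit of complex IV) to 1.74 (mt-Nd4l, of complex I) in the proximal tubule and from 0.73 (mt-Co3) to 1.5 (mt-Nd4l) in the loop of Henle. mt-Co1 had 9543 and 10227 CPM in the proximal tubule and 5887 and 6179 CPM in progenitors. mt-Nd1 had 8573 and 9775 CPM against 2952 and 3533 CPM (1.68 ± 0.20, adjusted p = 4.5e-07 by edgeR). Classes did not overlap for either gene. After free RNA was subtracted, 0 of the 13 passed the threshold in either comparison although the medians were larger (1.34 against 1.19 in the proximal tubule, 1.22 against 1.06 in the loop of Henle). The subtraction took 52.2% of endothelial counts in replicate 1, and all classes share the same fit and estimate of spread. The part of this in the lost calls was not tested. With at most 10% mitochondrial UMIs, 8 of 13 passed in the loop of Henle and the medians fell to 0.38 and, in the proximal tubule, 0.59. Without TMM factors 7 passed in the proximal tubule and 9 in the loop of Henle. Free RNA itself was 14.9% and 16.9% mitochondrial, above the median cell (5.32% and 4.74%).

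The limit of 20% mitochondrial UMIs acts on the measure itself. Without it the distal convoluted tubule gate took 95 and 170 cells in place of 48 and 113, the proximal tubule 572 and 341 in place of 407 and 257, and nephron progenitors 569 and 340 in place of 567 and 339. Within the limit, 29.2% and 48.7% of distal convoluted tubule cells lay above 15% mitochondrial UMIs. The mitochondrial levels of the tubule classes given above are therefore those of cells below the limit. The nuclear sum of the distal convoluted tubule was 70831 CPM at the mean of both libraries with the limit and 71658 CPM without it.

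Single mitochondrial genes also differed between the libraries. Outside the erythroid class, mt-Nd6, of complex I and the only protein coded on the light strand, was lower in replicate 2 in 13 of 13 classes, with a median ratio to replicate 1 of 0.41. mt-Atp8, of complex V, was lower in 13 of 13 with a median ratio of 0.52. mt-Nd1 was higher in replicate 2 in every one of these classes, with a median ratio of 1.23. In the proximal tubule mt-Nd6 had 207 and 71.6 CPM and in nephron progenitors 86.6 and 35.0 CPM, so that the class difference was present within each library (1.44 and 1.19 on the log2 scale). mt-Nd6 (positions 13552 to 14070) overlaps the end of mt-Nd5 (11742 to 13565) on the opposite strand. mt-Atp8 (7766 to 7969) overlaps the start of mt-Atp6 (7927 to 8607) on its own strand. Reads in the shared bases may be split between the genes. The median ratio was 0.80 for mt-Nd5 and 0.84 for mt-Atp6, and the part of the overlaps in these ratios was not tested.

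Other genes of mitochondrial energy metabolism were followed as 3 lists. Of 13 citrate cycle enzymes, 13 were called higher in the distal convoluted tubule, in intercalated cells and in the loop of Henle, and 12 in the proximal tubule, each against the mean of the other classes. The median log2 fold change was 1.62 in the distal convoluted tubule against -0.02 for all genes. Of 36 assembly factors of complexes I to V outside the name rule, 24 were higher and 2 lower in the distal convoluted tubule, 27 and 0 in the proximal tubule, 23 and 0 in the loop of Henle and 18 and 0 in intercalated cells. Of 22 regulators of mitochondrial biogenesis and mitochondrial gene expression, 9 were higher and 2 lower in the proximal tubule, 8 and 4 in the distal convoluted tubule, 7 and 1 in the loop of Henle and 6 and 1 in intercalated cells. Of all tested genes, 31.4% were called higher and 16.8% lower in the proximal tubule and 22.5% and 15.4% in the distal convoluted tubule. The shares were 24.1% and 12.4% in the loop of Henle and 21.0% and 12.5% in intercalated cells. The regulators lay nearer to these shares than the other lists did. Between the proximal tubule and progenitors, 5 regulators were higher and 5 lower, with a median of 0.03, where 29.7% and 31.4% of all genes were called in those directions.

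A few regulators carried large differences. Esrrg, which codes for oestrogen-related receptor gamma, had 41.5 and 34.2 CPM in nephron progenitors, 1502 and 1327 CPM in the proximal tubule, 3079 and 2279 CPM in the loop of Henle and 3666 and 2775 CPM in the distal convoluted tubule. Against progenitors its log2 fold change was 5.39 ± 0.34 in the proximal tubule and 6.14 ± 0.35 in the loop of Henle (adjusted p = 4.5e-11 and 2.6e-11 by edgeR). Ppargc1a, the coactivator PGC-1 alpha, had 7.78 and 9.42 CPM in progenitors, 124 and 111 CPM in the proximal tubule and 762 and 478 CPM in the distal convoluted tubule. Its log2 fold change in the proximal tubule was 3.93 ± 0.20 (adjusted p = 1.5e-12 by edgeR). Esrra, oestrogen-related receptor alpha, had 14.3 and 12.3 CPM in progenitors and 44.8 and 52.3 CPM in the proximal tubule (2.02 ± 0.17, adjusted p = 6.3e-09 by edgeR). Each of the 3 was called higher in all 5 tubule classes when these were set against the mean of the other classes.

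Esrrb had another pattern, with 82.1 and 60.9 CPM in the loop of Henle, 98.3 and 79.9 CPM in the distal convoluted tubule and 16.3 and 14.6 CPM in intercalated cells, but 0.952 and 0.528 CPM in the proximal tubule. Of the other regulators, Ppargc1b, Gabpb1, Lrpprc and Pprc1 were called in 10, 9, 9 and 9 of 14 classes in 1 direction or the other. The share of all genes called in as many classes is not given. Nrf1, nuclear respiratory factor 1, had 88.8 and 78.1 CPM in nephron progenitors and 42.7 and 49.9 CPM in the proximal tubule, where it was lower (-0.68 ± 0.17, adjusted p = 0.0018 by edgeR). Gabpa, the DNA-binding part of nuclear respiratory factor 2, differed by 0.00 ± 0.16 and Tfam, which packages mitochondrial DNA, by -0.13 ± 0.15 in the same comparison (adjusted p = 1.0 and 0.48 by edgeR).

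**Figure D5:**
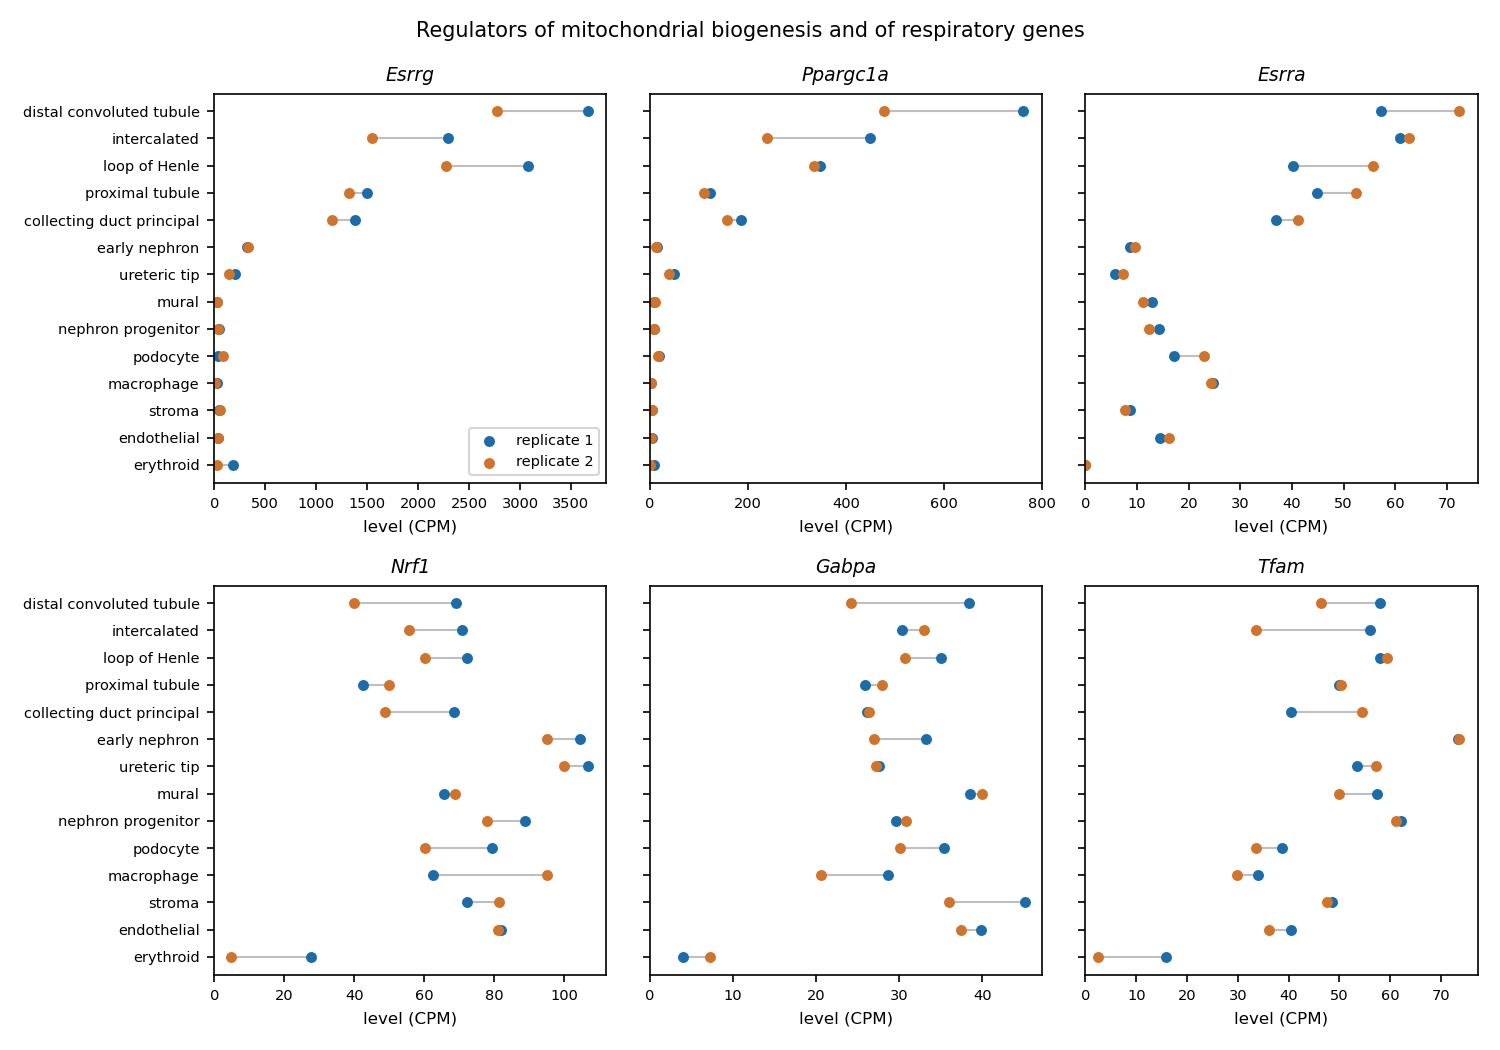
Level in CPM (x axis, linear from 0, own scale in each panel) of 6 regulators in each class (y axis, ordered by the summed level of the nuclear members), with 1 point per library. Esrrg, Ppargc1a and Esrra are higher in the 5 tubule classes at the top, with Esrrg at 3666 and 2775 CPM in the distal convoluted tubule, while Nrf1, Gabpa and Tfam show no such step.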

How the data were processed

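The deposited matrices hold raw UMI counts per gene and barcode, made by the authors with Cell Ranger (6.0.1 and build mm10 per the submitters' processing notes, version 4 per the file headers) and holding 2761081 and 2545815 barcodes with 200331687 and 173166168 UMIs. Members and lists were chosen with earlier results of these data known. Cells were kept as stated in the report. Each cell was gated by marker UMIs per 10000, each divided by its 99.5 percentile and limited to 1. A cell entered the class of highest mean score if that was at least 2 times the next and at least 3 markers were seen (2 for panels of 4, but 3 for the erythroid panel, 1 of whose markers is not among the listed genes). Doublets were treated by this gate only, with Scrublet as an alternative.

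Counts were summed per library and class (28 sums, 13 residual degrees of freedom) and tested with edgeR 4.0.16 (TMM, filterByExpr, class means plus a library block) over 17110 genes that were not gate markers, with Benjamini-Hochberg adjustment. The block rests on the classes of a library coming from 1 sample. The script was tested on simulated data. CPM are counts scaled to 1000000 UMIs per sum, and shares and intervals cover counting error only. Named genes were the mitochondrial members, the isoforms and their partners, the c subunit genes, the 10 members of largest change in each pair and those against the majority, the 3 of largest change in each class, the most often called other genes and 7 regulators. A gene that this rule names is not reported here. Under 20 counts in a class, counts are given in place of folds. Positions are from GENCODE M21 on mm10, promoters from RefSeq on GRCm38.p6. Alternatives were other UMI and mitochondrial limits, a stricter gate, Scrublet, free RNA subtraction scaled by haemoglobin counts, other scalings, DESeq2 1.42.0, no low-count filter, no block, fewer classes and single libraries.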

Additional observations from a re-analysis of the deposited data

How the results depend on the processing

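The counts of members called in the tubule classes and in the tubule against progenitor comparisons stayed within 1.5 times the reported count under each alternative run, with 1 exception: principal cells of the collecting duct had 20 calls in place of 37 with no replicate block. Without the replicate block the counts were also 35 in place of 69 in nephron progenitors, 27 in place of 56 in the early nephron, 29 in place of 55 in mural cells and 12 in place of 19 in the erythroid class. After free RNA was subtracted they were 37 in nephron progenitors, 14 in the early nephron, 40 in podocytes (80 reported), 31 in the ureteric tip (83), 55 in stroma (83) and 39 in macrophages (61). Without TMM factors they were 33, 14, 34, 14, 32 and 29 in the same order, 50 in endothelial cells (83), 13 in mural cells and 100 in the erythroid class. With at most 10% mitochondrial UMIs mural cells had 28 and the erythroid class 30, and the stricter gate also gave 30 in the erythroid class. With only the 2 classes in the fit, mural against stroma gave 20 in place of 3. Apart from that fit, shares over all genes are not given for the alternatives. The share of Cox4i2 in mural cells, 10.1% at the mean of both libraries, was 11.8% with the stricter gate and 12.6% after free RNA subtraction, and that of Ndufa4l2, 49.6%, was 54.3% and 56.8%. The cause was not tested.

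Free RNA subtraction took 52.2% and 21.7% of endothelial counts, left 0 mitochondrial member counts in endothelial cells of replicate 1 and reversed 6 fold changes: Atp5g1 in the early nephron (-0.51 to 0.037), Ppargc1a in podocytes (-0.84 to 0.059) and in mural cells against stroma (0.96 to -1.26), mt-Nd3 (-0.41 to 0.11) and Esrrg (-0.63 to 1.47) in the ureteric tip and Ndufa4l2 in endothelial cells (1.0 to -1.49). mt-Nd6 in the erythroid class went from 1.09 to -0.33 without TMM factors, which moved the median of all genes there from -0.68 to -2.32 and in the ureteric tip from 0.09 to 0.39. The erythroid class had under 20 cells in replicate 1 at 10000 UMIs and was left out of that fit. Depth limits Cox7b2, with at most 18 counts in any library of a class, and Cox4i2 in the 5 tubule classes, with at most 14.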

Other observations

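The cells that the gate left unassigned numbered 1675 in replicate 1 and 1267 in replicate 2. They had a median of 218 and 229 per 10000 UMIs from the nuclear members. Several classes outside the 5 tubule classes lay close to this: the early nephron (214 and 242), the ureteric tip (204 and 212), nephron progenitors (202 and 216) and mural cells (200 and 212). Their median mitochondrial share was 5.31% and 4.5%. Cells over 20% mitochondrial UMIs, which entered only the alternative without that limit, numbered 543 and 632. In the erythroid class the median cell had 58.0 and 46.8 per 10000 UMIs from the nuclear members and 2.05% and 0.779% from the mitochondrial ones.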
